A study of Mus musculus with 51 samples.

Results

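Keratins are the intermediate filament proteins of epithelial cells. The keratin genes of the early mouse embryo are described here through Krt8 and Krt7, which encode type II keratins, and Krt18, Krt19 and Krt28, which encode type I keratins. The genes were chosen by name, with earlier results of these data known, and every probe set whose platform gene symbol is exactly 1 of these names was taken. That gave 7 of the 45101 probe sets on the array, for 5 of the 18193 genes with a symbol of their own. Krt8 had 3 probe sets and each other gene had 1. Where 1 probe set stands for Krt8 it is the one with the largest standard deviation (SD) over all 51 arrays, 1420647_a_at.

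Each of the 51 arrays measured 1 single oocyte or embryo. At each of 6 stages there were 5 clones, made by moving the nucleus of a B6CBF1 Sertoli cell into a B6D2F1 oocyte. Sertoli cells are somatic and nurse the germ cells of the testis. At the same stages there were 3 embryos from in vitro fertilisation (IVF) of B6D2F1 oocytes with B6D2F1 sperm, and 3 B6D2F1 oocytes in metaphase of meiosis II (MII) stood before them. The stages were 1-cell, 2-cell, 4-cell, 8-cell, morula and blastocyst, collected 16, 32, 48, 62, 72 and 84 h after activation or sperm addition. Clones and IVF embryos thus also differ in the strain of the nuclear genome, and the clones come from male cells, whereas an IVF embryo can be of either sex. All embryos were kept in KSOM medium, and the labels call the samples of a group biological replicates.

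A keratin filament is built from pairs of 1 type I and 1 type II chain, and a chain without a partner is unstable. Krt8 and its partner Krt18 are the keratins of simple epithelia and mark the trophectoderm, the outer epithelium of the blastocyst that will form the placenta. Krt7 and Krt19 are further keratins of simple and ductal epithelia and are expressed in trophoblast, whereas Krt28 is known from the inner root sheath of the hair follicle.

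Krt8 (chr15:101996711-102004342, GRCm38.p6) and Krt18 (chr15:102028216-102032026) are neighbours at the edge of the type II keratin cluster, 23874 bases apart, with 0 protein-coding genes starting between them. Krt18 is a type I gene that lies among type II genes. Krt7 lies in the same cluster (chr15:101412403-101427806). Krt19 (chr11:100140810-100145926) and Krt28 (chr11:99365007-99374903) lie in the type I cluster. The assembly holds 26 protein-coding keratin genes on chromosome 15 and 27 on chromosome 11.

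The promoters are shown because the neighbours Krt8 and Krt18 moved together late in development while Krt7 followed later and Krt28 had a course of its own. The sequences are RefSeq's, build GRCm38.p6, from 250 bases before the annotated start to 50 after it, 5′ to 3′ on the strand of the gene, for the 4 genes with an entry (Krt19 is named only). Capitals mark matches, on either strand, to the motifs searched. The windows are chr15:102004293-102004592 on the minus strand for Krt8, chr15:102027966-102028265 on the plus strand for Krt18, chr15:101412153-101412452 on the plus strand for Krt7 and chr11:99374854-99375153 on the minus strand for Krt28.
Krt8: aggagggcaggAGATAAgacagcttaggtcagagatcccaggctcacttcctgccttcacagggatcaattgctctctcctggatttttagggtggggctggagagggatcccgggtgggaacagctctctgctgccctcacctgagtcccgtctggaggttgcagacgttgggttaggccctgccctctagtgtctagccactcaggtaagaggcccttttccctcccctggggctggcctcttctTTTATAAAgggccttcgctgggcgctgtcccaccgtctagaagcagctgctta
Krt18: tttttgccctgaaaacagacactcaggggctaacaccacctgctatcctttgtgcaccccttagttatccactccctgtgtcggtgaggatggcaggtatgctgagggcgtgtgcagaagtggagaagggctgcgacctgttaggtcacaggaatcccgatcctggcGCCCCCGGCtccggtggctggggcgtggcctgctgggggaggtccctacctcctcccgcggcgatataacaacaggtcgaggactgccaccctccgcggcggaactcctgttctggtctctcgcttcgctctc
Krt7: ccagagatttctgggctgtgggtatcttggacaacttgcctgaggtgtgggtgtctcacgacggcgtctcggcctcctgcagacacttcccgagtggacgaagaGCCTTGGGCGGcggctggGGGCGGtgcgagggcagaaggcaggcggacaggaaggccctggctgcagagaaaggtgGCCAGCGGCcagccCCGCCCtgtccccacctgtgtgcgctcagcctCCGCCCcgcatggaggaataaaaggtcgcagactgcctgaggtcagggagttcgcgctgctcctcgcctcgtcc
Krt28: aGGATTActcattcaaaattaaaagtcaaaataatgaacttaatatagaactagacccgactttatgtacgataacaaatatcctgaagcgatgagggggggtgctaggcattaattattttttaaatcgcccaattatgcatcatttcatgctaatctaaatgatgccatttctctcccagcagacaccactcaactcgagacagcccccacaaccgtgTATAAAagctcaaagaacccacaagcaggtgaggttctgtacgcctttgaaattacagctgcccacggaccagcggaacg

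A set of 8 short motifs were searched on both strands in these windows and in all 32851 promoter windows of the same length. The TATA box letters TATAAA were in 13.6% of all windows, the TEAD motif GGAATG in 14.7%, the AP-2 motif GCCNNNGGC in 16.6% and the AP-1 motif TGANTCA in 7.81%. For GATA factors the letters AGATAA were in 11.2%, for CDX factors TTTATNG in 10.9%, for homeodomains of OTX and OBOX type GGATTA in 7.06% and for SP and KLF factors GGGCGG in 35.7%. The Krt8 window had AGATAA with its first base at -239, and TATAAA across the annotated start, where the 2 strands' matches overlap. Krt18 had 1 GCCNNNGGC match, starting at -83. Krt7 had 2 GCCNNNGGC and 4 GGGCGG matches, of which 1 pair overlaps, and Krt28 had TATAAA starting at -30 and GGATTA starting at -249. A match is a string of letters and was not tested for binding.

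The deposited values are log2 values centred for each probe set, so a value is a distance from that probe set's own baseline and levels of different genes cannot be compared. A difference of 1 is a factor of 2. Tests are limma's moderated tests on all 45037 probe sets that are no manufacturer controls, with Benjamini-Hochberg adjustment over all of them and a threshold of 0.05. Differences are given ± standard error. Steps between stages come from fits that share 1 estimate of the spread over all their stages. Where the spread differs between stages, the standard error does not follow it. In whole embryos, fewer cells of a type and less RNA per cell cannot be told apart.

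The medians of the arrays lay between -0.07 and 0.07. The mean of the bacterial hybridisation control probe sets, relative to its own baseline, differed between groups. It lay between 0.57 and 1.22 in 2-cell clones against -0.73 to -0.23 in 2-cell IVF embryos, and between 0.69 and 1.19 against -0.51 to -0.13 at the 4-cell stage. At the 8-cell stage it lay between -0.03 and 0.96 in clones and between -0.44 and -0.24 in IVF embryos. At each of these stages clones and IVF embryos did not overlap. A fit with the controls as a covariate therefore cannot well tell the array from the kind of embryo, and a call lost in it decides nothing. The 1-cell clones split, with -1.02 to -0.71 in clones 1 to 3 and with 0.35 and 0.50 in clones 4 and 5. The IVF 1-cell embryos lay between 0.53 and 0.79, above all 1-cell clones and nearer to clones 4 and 5. A fit without clones 4 and 5 thus leaves clones and IVF embryos farther apart in these controls. The 8-cell clone of replicate 4 had the Y-linked gene Eif2s3y at -5.25, against -2.70 to 1.23 in the other 8-cell clones, although the donor Sertoli cells are male cells. Tests on main probe sets that rest on 1-cell clones 4 and 5 or on 8-cell clone 4 were run again without them. The values stand beside the results. Between 8-cell clones and IVF embryos 3.35% of all probe sets differed without clone 4. Among IVF blastocysts Eif2s3y read -5.52, 2.24 and 2.06, so the IVF embryos were not all alike in this gene. The part of sex in the differences between clones and IVF embryos was not tested.

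The controls also moved at the step to the blastocyst, where the keratins reach their highest values. The hybridisation controls lay between -1.25 and -1.07 in cloned blastocysts against -0.10 to 0.98 in cloned morulae, and between -1.25 and -0.70 in IVF blastocysts against -0.04 to 0.23 in IVF morulae. The 3′ minus 5′ difference of the actin control probe sets, which moves with the length of the RNA measured, lay between -2.40 and -1.58 in cloned blastocysts against -1.47 to 0.27 in cloned morulae. In IVF embryos it lay between -2.75 and -1.98 in blastocysts against -0.84 to -0.45 in morulae. The part of the actin difference in the keratin steps was not tested, and the values with the hybridisation controls as a covariate stand beside the steps concerned.

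The mean of 8 oocyte markers lay between 6.28 and 6.48 in MII oocytes and between -3.05 and -2.87 in cloned blastocysts. Without the keratins, the mean of 6 trophectoderm markers lay between 2.73 and 3.22 in cloned blastocysts and between 2.67 and 3.00 in IVF blastocysts. The mean of 6 inner cell mass markers lay between 1.46 and 2.09 in cloned blastocysts and between 2.37 and 2.66 in IVF blastocysts. Means of Sertoli cell markers (12 genes) lay between -0.39 and 1.57 over all groups, those of sperm and late germ cell markers (8 genes) between -0.23 and 0.35. The 10 measured cumulus and granulosa cell markers averaged 1.06 to 1.31 in MII oocytes and at most 0.72 in any embryo.

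Krt8 and Krt18 were at a low level in oocytes and early embryos and were highest in blastocysts, where the means of clones and IVF embryos alike lay more than 11 log2 units above the oocytes. Krt8 had an additional peak at the 2-cell stage of IVF embryos that clones did not show. Krt7 rose last, mainly between morula and blastocyst, with IVF morulae 1 and 3 already at 2.10 and 0.52, and Krt19 hardly moved. Krt28 was high in 2-cell, 4-cell and 8-cell IVF embryos and near its baseline in clones at these stages.

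**Figure D1:**
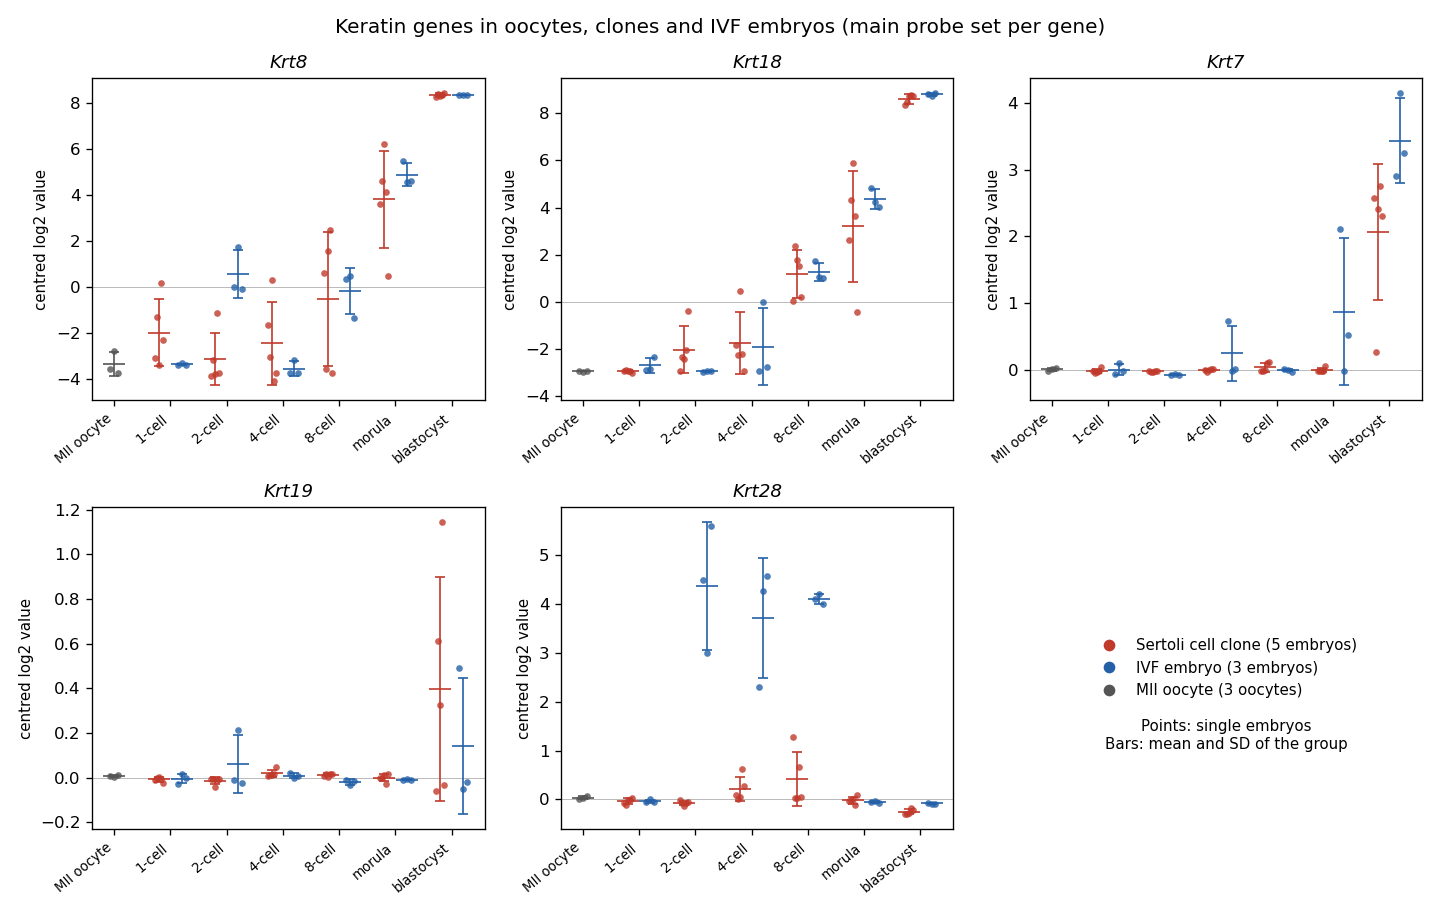
Centred log2 value (vertical axis, own scale for each gene) of each oocyte and embryo by stage, with clones in red, IVF embryos in blue and MII oocytes in grey. Bars give the mean and SD of each group; Krt8 and Krt18 climb to blastocyst values of 8.26 to 8.45 and 8.34 to 8.86, whereas Krt28 reads 2.30 or more in 2-cell to 8-cell IVF embryos alone.

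In the oocytes Krt8 read -3.57, -2.79 and -3.77. At the 1-cell stage it read -3.10, -1.31, -3.39, 0.16 and -2.34 in the clones and -3.41, -3.34 and -3.40 in the IVF embryos. The IVF embryos lay close together, whereas clones 1, 2, 4 and 5 lay above all of them. The difference of 1.39 ± 0.83 did not pass the test (adjusted p = 0.622). The highest clone was replicate 4, 1 of the pair whose array controls stood apart from the other 1-cell clones and nearer to the IVF embryos. Without that pair the difference was 0.79 ± 0.61 (adjusted p = 0.713).

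At the 2-cell stage Krt8 read -3.89, -3.19, -3.79, -1.16 and -3.74 in the clones and 0.00, 1.75 and -0.07 in the IVF embryos. The groups did not overlap, and 4 of the 5 clones stayed at the level of oocytes. The difference of -3.71 ± 0.77 missed the threshold in the fit of the 8 arrays of this stage (adjusted p = 0.0902). It passed without clone 4 (-4.21, adjusted p = 0.0401) and in a fit of all 51 arrays (adjusted p = 0.0234). Over the 19 alternatives the adjusted p ran from 0.0234 to 1.00, the highest with the hybridisation controls as a covariate, where the difference was -1.73. That covariate did not overlap between clones and IVF embryos here, so the fit cannot well tell it from the kind of embryo.

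The other Krt8 probe sets gave the same picture. On 1423691_x_at the clones lay between -3.01 and -2.10 and the IVF embryos read 0.00, 1.77 and -0.20, a difference of -3.05 ± 0.50 that passed (adjusted p = 0.0460). On 1435989_x_at the clones lay between -3.49 and -1.38 and the IVF embryos read 0.02, 1.93 and -0.22, a difference of -3.10 ± 0.71 that did not pass (adjusted p = 0.117). On neither probe set did the groups overlap. Over the 51 arrays the 3 probe sets correlated pairwise with r of 0.99, and their deviations from the group means with r between 0.89 and 0.93, as a description of probe sets that share the same RNA. A suffix of x marks probe sets that may also bind other transcripts.

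**Figure D2:**
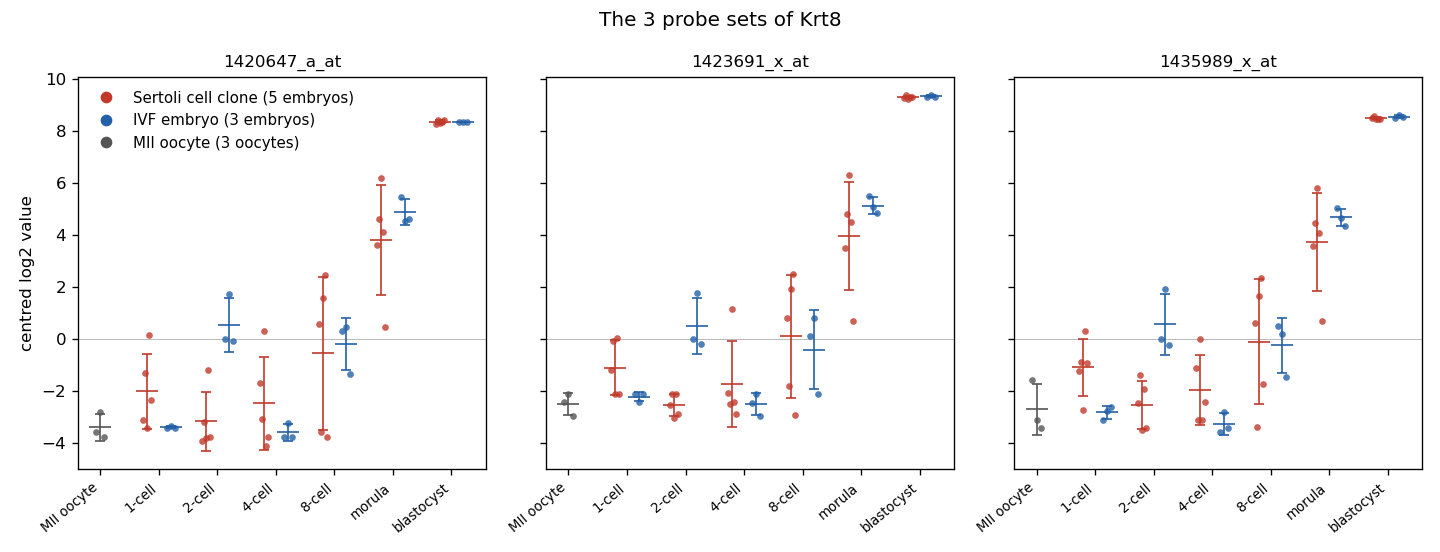
Centred log2 value of the 3 Krt8 probe sets in each oocyte and embryo by stage, with clones in red, IVF embryos in blue and MII oocytes in grey; bars give the mean and SD. On each probe set the 3 IVF embryos of the 2-cell stage lie above all 5 clones of that stage, and the blastocysts of both kinds coincide.

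Among IVF embryos this 2-cell peak passed the test on both sides. Krt8 was higher at the 2-cell than at the 1-cell stage by 3.94 ± 0.49 (adjusted p = 1.2e-05) and lower at the 4-cell than at the 2-cell stage by a log2 difference of -4.13 ± 0.49 (adjusted p = 3.44e-05). The other probe sets gave steps up of 2.72 and 3.38 and steps down of -3.02 and -3.83, each past the threshold. Among clones the 1-cell to 2-cell step was -1.16 ± 1.13 (adjusted p = 0.622), and -0.55 ± 1.30 without 1-cell clones 4 and 5, and the 2-cell to 4-cell step 0.69 ± 1.13 (adjusted p = 0.708).

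The clone step minus the IVF step from the 1-cell to the 2-cell stage was -5.10 ± 1.52 (adjusted p = 0.0263), and -4.16 ± 1.32 (adjusted p = 0.0398) and -4.82 ± 1.29 (adjusted p = 0.0114) on the other probe sets. Without 1-cell clones 4 and 5 it was -4.50 (adjusted p = 0.0736), so the call was lost. It was also lost when replicate 1, 2 or 3 of the IVF embryos or replicate 1 or 2 of the clones was left out, with differences of -5.41 to -4.53 and adjusted p of 0.0527 to 0.186. Quantile normalization gave -4.44 (adjusted p = 0.228) and the covariate for the hybridisation controls -5.06 (adjusted p = 0.277). Over 18 alternatives the adjusted p ran from 0.0148 to 0.277. The opposite step to the 4-cell stage differed by 4.82 ± 1.52 and did not pass (adjusted p = 0.0956).

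At the 4-cell stage Krt8 read -1.68, -3.08, 0.31, -4.09 and -3.75 in the clones and -3.76, -3.20 and -3.76 in the IVF embryos. At the 8-cell stage it read 0.59, -3.58, 1.58, 2.47 and -3.76 in the clones and 0.33, 0.46 and -1.35 in the IVF embryos. The 8-cell clones fell into 3 embryos above all IVF embryos and 2 at the level of oocytes, and their SD was 2.93 against 1.01 in IVF embryos. The clone minus IVF differences were 1.11 ± 1.02 at the 4-cell stage (adjusted p = 0.738) and -0.35 ± 1.71 at the 8-cell stage (adjusted p = 0.879). The 8-cell interval of -4.44 to 3.73 is wide, so a difference of several fold in either direction was not detectable with these embryos. Without clone 4 the difference was -1.11 ± 1.61 (adjusted p = 0.608).

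In morulae Krt8 read 3.63, 4.61, 6.21, 4.14 and 0.46 in the clones and 5.47, 4.56 and 4.64 in the IVF embryos. In blastocysts it read 8.26, 8.43, 8.32, 8.36 and 8.45 in the clones and 8.38, 8.36 and 8.36 in the IVF embryos. Clone 5 was the low morula, and the blastocysts of both kinds lay in 1 narrow range. Whether the array still resolves differences at so high a level cannot be judged from centred values and was not tested. The morula difference was -1.08 ± 1.21 (adjusted p = 0.809), and -0.24 without clone 5. In blastocysts the 95% interval of the clone minus IVF difference ran from -0.11 to 0.11 on the main probe set, from -0.12 to 0.05 on 1423691_x_at and from -0.16 to 0.04 on 1435989_x_at.

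Krt8 rose at each later step in IVF embryos. The 8-cell embryos lay 3.39 ± 0.49 above 4-cell embryos (adjusted p = 0.00418), morulae 5.07 ± 0.49 above 8-cell embryos (adjusted p = 6.34e-06) and blastocysts 3.48 ± 0.49 above morulae (adjusted p = 0.000162). On 1423691_x_at the step to the 8-cell stage was 2.11 ± 0.60 and did not pass (adjusted p = 0.113). On 1435989_x_at it was 3.02 ± 0.59 and passed (adjusted p = 0.0234). The steps to the morula and the blastocyst passed on both, in IVF embryos and in clones. In clones the steps were 1.92 ± 1.13 (adjusted p = 0.508), 4.35 ± 1.13 (adjusted p = 0.0104) and 4.56 ± 1.13 (adjusted p = 0.00275), so the last pair passed. Without 8-cell clone 4 the clone steps to the 8-cell stage and the morula were 1.17 ± 1.13 (adjusted p = 0.842) and 5.10 ± 1.13 (adjusted p = 0.00336). Without the IVF embryos of replicate 1 the 4-cell to 8-cell step was 3.04 (adjusted p = 0.173), and without the clones of replicate 2 the clone step to the morula was 3.39 (adjusted p = 0.122). Quantile normalization brought the step to the blastocyst to 1.14 in IVF embryos (adjusted p = 0.272) and to 2.54 in clones (adjusted p = 0.200). With the hybridisation controls as a covariate that step was 3.26 in IVF embryos (adjusted p = 0.116) and 4.57 in clones (adjusted p = 0.175). Over the alternatives of these steps the adjusted p ran from 1.5e-06 to 0.272.

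Krt18, the type I partner, had no 2-cell peak. It read -2.95, -2.96 and -2.94 in oocytes, and at the 2-cell stage -2.96, -2.34, -2.45, -2.04 and -0.38 in the clones and -2.97, -2.95 and -2.96 in the IVF embryos. At the 1-cell stage it lay between -3.01 and -2.88 in the clones and between -2.91 and -2.33 in the IVF embryos. At the stage where IVF embryos had Krt8 up, their Krt18 thus stayed at the level of the oocytes, while 4 of the 5 clones lay above the IVF range. The 2-cell difference of 0.93 ± 0.56 did not pass (adjusted p = 0.672).

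At the 4-cell stage Krt18 read -1.82, -2.26, 0.45, -2.21 and -2.94 in the clones and -2.94, 0.00 and -2.77 in the IVF embryos. Clone 3 and IVF embryo 2 stood high, and clone 3 was also the highest 4-cell embryo for Krt8. At the 8-cell stage Krt18 read 0.01, 2.36, 1.76, 1.53 and 0.20 in the clones and 1.71, 1.03 and 1.02 in the IVF embryos. All 8 embryos of this stage were more than 2 log2 units above the highest oocyte, including clones 2 and 5, whose Krt8 was still at the level of oocytes. For Krt8 that held for 3 of 5 clones and 2 of 3 IVF embryos.

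In morulae Krt18 read 2.62, 4.32, 5.89, 3.66 and -0.44 in the clones and 4.83, 4.24 and 4.02 in the IVF embryos. In blastocysts it read 8.34, 8.46, 8.74, 8.79 and 8.71 in the clones and 8.81, 8.75 and 8.86 in the IVF embryos. Clone 5 was again the lowest morula and clone 3 the highest. The morula difference was -1.16 ± 1.34 (adjusted p = 0.809), and -0.24 without clone 5. The blastocyst difference of -0.20 ± 0.11 did not pass (adjusted p = 0.483), with an interval of -0.47 to 0.07.

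The low morula, clone 5, was not low in the mean of other trophectoderm markers, which were not read singly in this embryo. Its mean over the 6 trophectoderm markers other than keratins was 1.58, within the 1.49 to 1.67 of the other cloned morulae, against 1.30 to 2.74 in IVF morulae. Its inner cell mass mean was 0.35, within the -1.37 to 1.24 of the other clones. Its hybridisation control mean was 0.98, the highest of the morulae, whose other values ran from -0.10 to 0.73. The part of the array in its low keratin values was not tested. Over all morulae, the mean of the Sertoli cell markers, which mark the donor cell type, lay between 0.68 and 1.33 in clones and between -0.08 and 0.03 in IVF embryos, and its part in the keratin values was not tested.

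Krt18 rose in IVF embryos by 3.16 ± 0.53 from the 4-cell to the 8-cell stage (adjusted p = 0.0099), by 3.11 ± 0.53 to the morula (adjusted p = 0.00102) and by 4.44 ± 0.53 to the blastocyst (adjusted p = 3.4e-05). In clones the step to the 8-cell stage was 2.93 ± 0.77 (adjusted p = 0.0283) and that to the blastocyst 5.40 ± 0.77 (adjusted p = 8.95e-06). The IVF step to the blastocyst lost its call with quantile normalization (1.98, adjusted p = 0.0773) and with the hybridisation controls as a covariate (3.67, adjusted p = 0.0902), over a range of 1.58e-05 to 0.0902. The clone step to the morula, 2.04 ± 0.77, did not pass (adjusted p = 0.0791, and 0.102 without 8-cell clone 4). None of the Krt18 steps differed between clones and IVF embryos past the threshold in limma's test, with differences of -1.07 to 1.18 and 0 of 5 steps under an unadjusted p of 0.05.

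The 4-cell to 8-cell calls of Krt18 were lost when some single replicates were left out, which also leaves fewer arrays. In IVF embryos the step was 2.42 without replicate 1 (adjusted p = 0.319) and 2.84 without replicate 3 (adjusted p = 0.241), and the step to the morula was 3.16 without replicate 3 (adjusted p = 0.0563). In clones the step to the 8-cell stage was 3.20, 2.50 and 2.72 without replicates 1, 2 and 4 (adjusted p = 0.0921, 0.219 and 0.183). Without the 8-cell clone of replicate 4, whose label is in doubt, it was 2.84 (adjusted p = 0.0571). Over the alternatives of these steps the adjusted p ran from 0.00053 to 0.319.

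**Figure D3:**
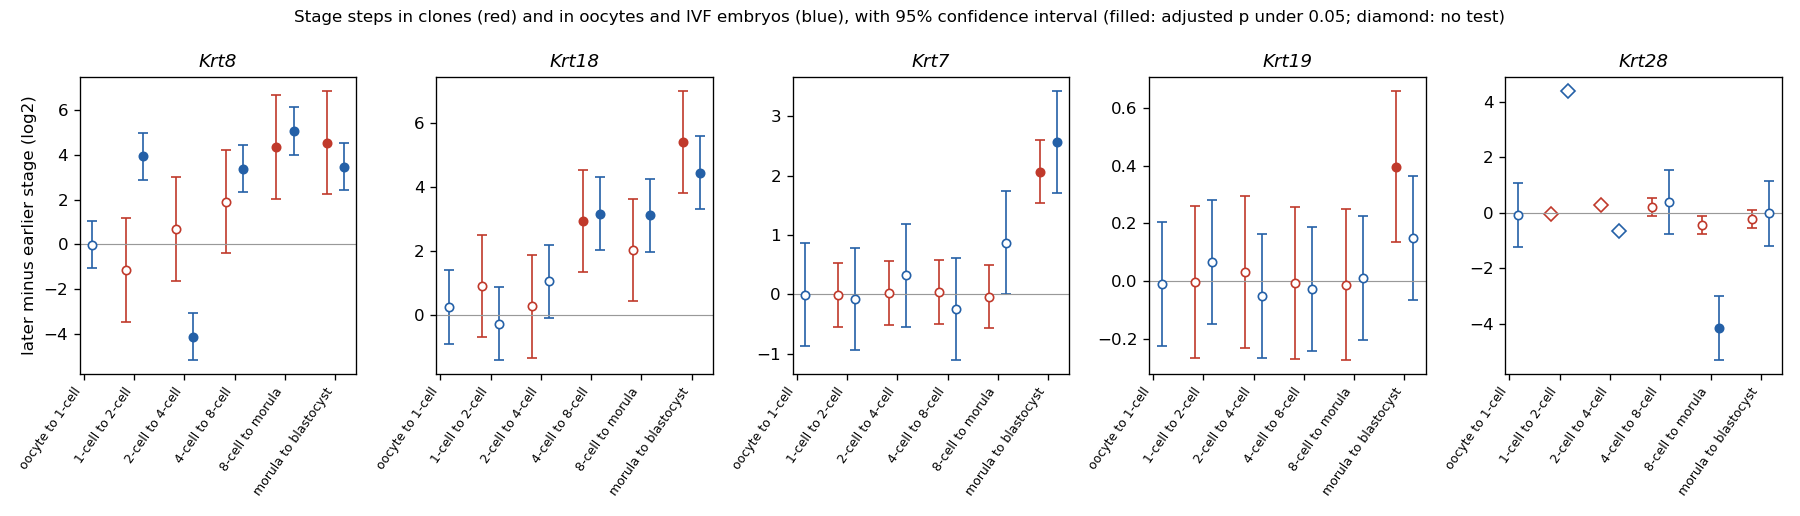
Difference between each stage and the one before it (later minus earlier, log2, vertical axis with its own scale for each gene) for the main probe sets, with clones in red left of oocytes and IVF embryos in blue and bars for the 95% confidence interval. Filled circles passed the threshold and diamonds have no test; Krt8 in IVF embryos steps up by 3.94 to the 2-cell stage and down to the 4-cell stage, which clones do not show.

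Over the 13 group means the pattern of Krt8 correlated with that of Krt18 with r = 0.95, a value that 0.137% of genes exceeded for Krt8. Within groups, the deviations of single embryos from their group means correlated with r = 0.51 and rho = 0.48 over 51 arrays. In a permutation test within groups, adjusted over the 10 pairs of members, Pearson's r did not pass (p = 0.00989, adjusted p = 0.0989) and Spearman's rho did (p = 0.00343, adjusted p = 0.0343). Without the 2 arrays farthest from the median of Krt8, morula clone 5 and 8-cell clone 5, r was 0.30 (adjusted p = 0.500). Leaving out the farthest values also narrows the range of Krt8, so this cannot show that the relation rests on those embryos. In the 30 clone arrays r was 0.54 (adjusted p = 0.161), and in the 21 oocyte and IVF arrays 0.31 (adjusted p = 0.266). Without the 2 farthest arrays of each set r was 0.31 and 0.50.

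**Figure D4:**
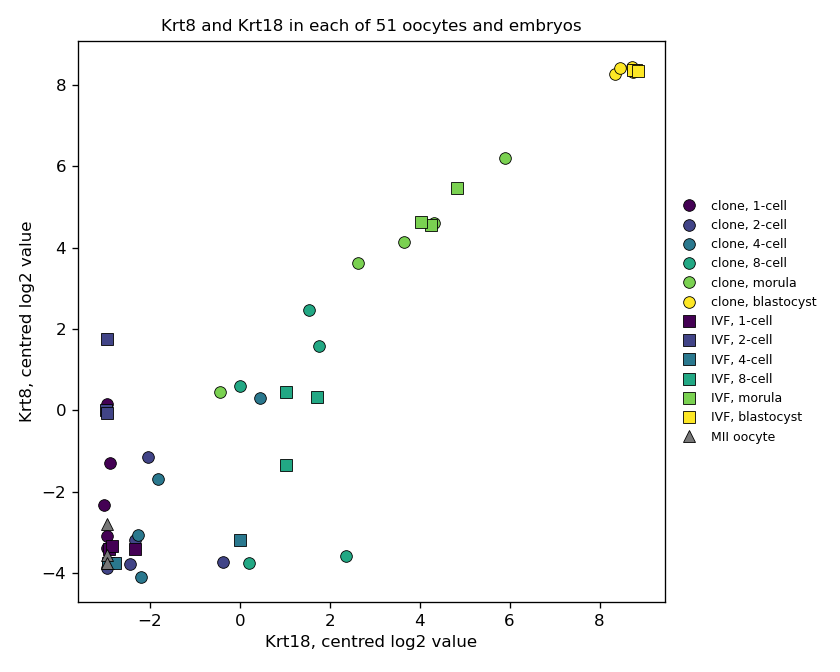
Krt8 (vertical axis) against Krt18 (horizontal axis), both as centred log2 values, for each of the 51 oocytes and embryos; circles are clones, squares IVF embryos, triangles oocytes, and colour gives the stage. Morulae and blastocysts lie along a line, whereas the 2-cell IVF embryos have Krt8 up with Krt18 at the level of oocytes. The 8-cell clones 2 and 5 have Krt18 up with Krt8 at -3.58 and -3.76.

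Krt7, a type II keratin of simple epithelia, stayed between -0.04 and 0.12 in oocytes and in every clone up to the morula. Among IVF embryos before the blastocyst, 4-cell embryo 1 at 0.73 and morulae 1 and 3 at 2.10 and 0.52 stood high, and all others lay between -0.08 and 0.10. At the 2-cell stage the groups did not overlap, but the difference of 0.05 ± 0.01 did not pass (adjusted p = 0.0746). In blastocysts Krt7 read 2.58, 0.27, 2.41, 2.75 and 2.30 in the clones and 2.90, 4.15 and 3.25 in the IVF embryos. All 5 clones lay below all 3 IVF embryos, and clone 2 stood far below the other clones. The difference of -1.37 ± 0.62 did not pass in the fit of the 8 blastocysts (adjusted p = 0.364) and passed in a fit of all 51 arrays (adjusted p = 0.00999). The latter fit takes its spread also from the earlier stages, where Krt7 was mostly flat. In blastocysts the SD was 1.02 in clones and 0.64 in IVF embryos. Over the 19 alternatives the difference ran from -1.68 to -0.92, with adjusted p of 0.00999 to 0.793.

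The step from morula to blastocyst raised Krt7 by 2.06 ± 0.26 in clones (adjusted p = 1.24e-06) and by 2.57 ± 0.41 in IVF embryos (adjusted p = 0.000406). In clones the SD was 1.02 in blastocysts and 0.03 in morulae, so the shared standard error does not follow the spread of the blastocysts. Without replicate 3 the IVF step was 2.48 (adjusted p = 0.0595), and over its 10 alternatives the adjusted p ran from 0.000199 to 0.0595. The clone step minus the IVF step was -0.50 ± 0.46 (adjusted p = 0.943). None of the 5 morula clones had left the baseline, against 2 of 3 IVF morulae, and the morula difference of -0.87 ± 0.44 did not pass (adjusted p = 0.8).

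Krt19, a type I keratin of simple epithelia and trophoblast, had the smallest spread of the members, with an SD of 0.20 over the 51 arrays that 76.7% of genes exceeded. Before the blastocyst it stayed between -0.04 and 0.05 in all clones and between -0.03 and 0.21 in all IVF embryos. In blastocysts it read -0.06, 0.61, 0.33, 1.14 and -0.03 in the clones and 0.49, -0.05 and -0.02 in the IVF embryos. In both kinds some embryos stood above the baseline and others stayed on it. The clone blastocysts lay 0.40 ± 0.13 above clone morulae (adjusted p = 0.0163), the IVF blastocysts 0.15 ± 0.10 above IVF morulae (adjusted p = 0.292). The SD was 0.50 in clone blastocysts and 0.02 in clone morulae. The shared standard error and the clone call therefore do not follow the spread of the blastocysts. The clone call was lost without replicate 2 (0.34, adjusted p = 0.108), 3 (0.42, adjusted p = 0.0575) or 4 (0.20, adjusted p = 0.0908), with adjusted p of 0.00946 to 0.32 over its 15 alternatives. The steps of clones and IVF embryos differed by 0.25 ± 0.18 (adjusted p = 0.853).

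Krt28, the hair follicle keratin, was high in IVF embryos at the 2-cell, 4-cell and 8-cell stages. It lay between -0.11 and 0.06 in oocytes and 1-cell embryos. At the 2-cell stage it read -0.02, -0.06, -0.14, -0.07 and -0.05 in the clones and 4.50, 2.99 and 5.61 in the IVF embryos, a difference of -4.43 on which the gene had drawn attention in earlier work on these data and which therefore has no test. At the 4-cell stage it read 0.09, 0.00, 0.06, 0.62 and 0.27 in the clones and 2.30, 4.27 and 4.58 in the IVF embryos. At the 8-cell stage it read 1.27, 0.02, 0.03, 0.65 and 0.06 in the clones and 4.11, 4.20 and 4.01 in the IVF embryos.

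At all 3 stages the groups were apart, and the highest clone, 8-cell clone 1, read 1.27, against 2.30 in the lowest IVF embryo. The difference was -3.51 ± 0.51 at the 4-cell stage (adjusted p = 0.0323) and -3.70 ± 0.32 at the 8-cell stage (adjusted p = 0.00432). Without 8-cell clone 4 the 8-cell difference was -3.76 (adjusted p = 0.0127). The hybridisation controls moved with these groups, and with them as a covariate the differences were -1.39 at the 4-cell stage (adjusted p = 0.728) and -3.23 at the 8-cell stage (adjusted p = 0.219). At both stages the controls did not overlap between clones and IVF embryos, so these fits cannot well tell them from the kind of embryo. With IVF embryo 2 or 3 or any 1 clone left out, the 4-cell difference lay between -3.61 and -3.07. The call was lost in each of these fits (adjusted p of 0.0701 to 0.105). In all, the 4-cell call was lost in 9 of 19 alternatives and the 8-cell call in 2. Over the 19 alternatives of either stage the adjusted p ran from 1.98e-10 to 0.728.

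In IVF embryos Krt28 returned to its baseline between the 8-cell stage and the morula, a step of -4.16 ± 0.54 (adjusted p = 9.28e-05) that ended at -0.06, -0.04 and -0.08 in the 3 morulae. In clones the same step was -0.42 ± 0.16 (adjusted p = 0.0723), and -0.36 ± 0.17 without 8-cell clone 4. The clone step minus the IVF step was 3.74 ± 0.47 (adjusted p = 1.53e-06), and it passed in each of 18 alternatives with differences of 3.63 to 4.66. Cloned blastocysts read -0.30, -0.30, -0.27, -0.18 and -0.21 against -0.08, -0.09 and -0.09 in IVF blastocysts. That difference of -0.17 ± 0.03 passed narrowly (adjusted p = 0.0484), without overlap, and the call was lost in 14 of 19 alternatives, among them those without IVF replicate 1, 2 or 3 or clone replicate 1, 2, 3 or 5 (adjusted p between 0.0663 and 0.131), over a range of 0.0396 to 1.00.

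**Figure D5:**
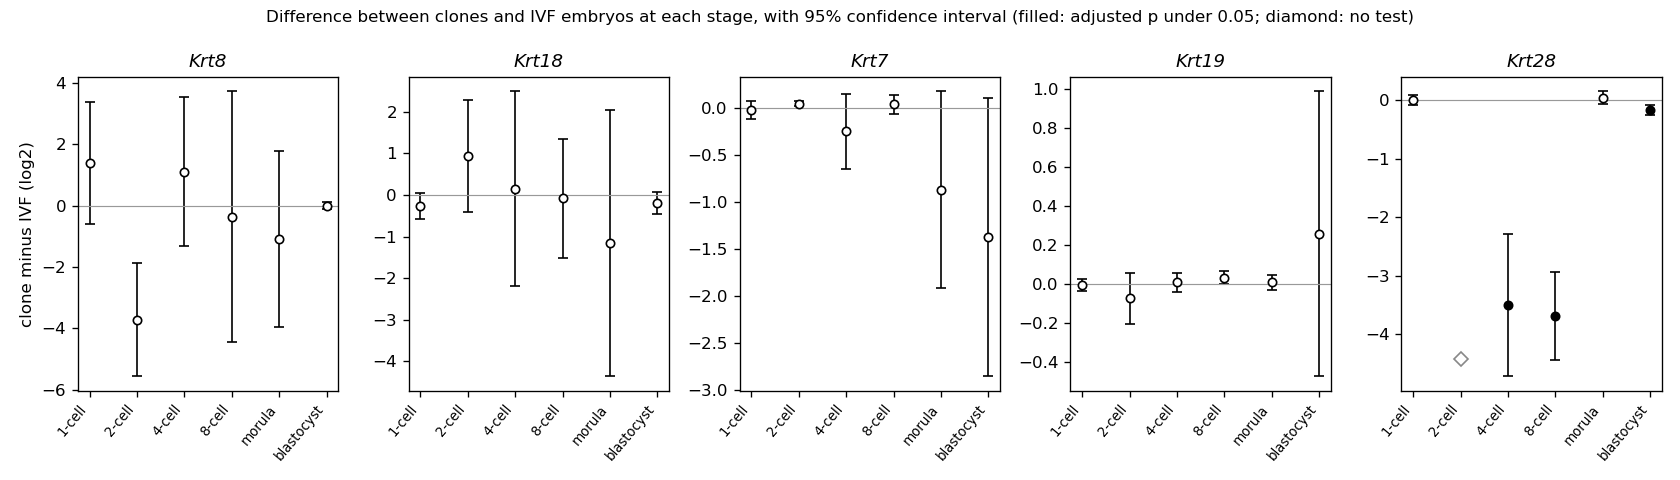
Clone minus IVF difference (log2, vertical axis with its own scale for each gene) at each stage for the main probe sets, with bars for the 95% confidence interval. Filled circles passed the threshold, open circles did not, and the diamond is Krt28 at the 2-cell stage, -4.43, without a test; the 3 filled points are all Krt28, at -3.51, -3.70 and -0.17.

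Counted over the members' main probe sets, clones and IVF embryos differed for 0 of 5 genes at the 1-cell stage (3.57% of all probe sets passed) and for 0 of 4 tested genes at the 2-cell stage (1.43% of all). They differed for 1 of 5 at the 4-cell stage (1.35%), 1 of 5 at the 8-cell stage (8.01%), 0 of 5 in morulae (0.118%) and 1 of 5 in blastocysts (3.36%). In limma's test 2 of the 4 had an unadjusted p under 0.05 at the 2-cell stage, and 0 of 5 at the 1-cell and morula stages. The median difference of the tested members lay between -0.87 in morulae and 0.01 at the 4-cell stage, and that of all probe sets within 0.05 of 0 at every stage.

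Among oocytes and IVF embryos, 0 of 5 members changed from the oocyte to the 1-cell stage, where 24% of all probe sets did (0 under an unadjusted p of 0.05). Of the 4 tested, 1 changed at the step to the 2-cell stage (25.6% of all) and 1 at the step to the 4-cell stage (17.4%). At the step to the 8-cell stage 2 of 5 changed, against 1.12% of all, then 3 of 5 at the step to the morula (11.4%) and 3 of 5 at the step to the blastocyst (29.9%). Among clones the counts were 0 of 4 (29.6% of all) and 0 of 4 (25.9%) at the steps to the 2-cell and 4-cell stages, with 0 under an unadjusted p of 0.05. They were 1 of 5 (3.87%), 1 of 5 (14.2%) and 4 of 5 (38.4%) at the steps to the 8-cell stage, the morula and the blastocyst.

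The clone step differed from the IVF step for 1 of 4 members from the 1-cell to the 2-cell stage (8.54% of all probe sets) and for 0 of 4 at the next step (2.01%), where Krt8 had an unadjusted p under 0.05. It differed for 0 of 5 at the step to the 8-cell stage (0.759%), 1 of 5 at the step to the morula (3.55%) and 0 of 5 at the step to the blastocyst (1.34%), with 0 of 5 under an unadjusted p of 0.05 at the first and last of these. Krt8 and Krt28 were the genes concerned.

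The levels of Krt8 ordered as blastocysts of both kinds, then morulae of both kinds, then a run from 2-cell IVF embryos to 4-cell IVF embryos in which each group overlapped the next. Krt18 had the same gap below the blastocysts. For Krt7 the IVF blastocysts stood apart above the clone blastocysts, which overlapped the IVF morulae. For Krt28 the 2-cell, 8-cell and 4-cell IVF embryos overlapped each other and stood apart from all other groups. Only 0.181% of genes had a larger SD over the arrays than Krt8 and 0.313% a larger one than Krt18, against 28.0% for Krt28 and 48.4% for Krt7.

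The genes whose 13 group means were most like those of a member were found among genes with 1 symbol. For Krt8 they were Cbs, Fabp3 and Rab17 (r of 0.97, 0.97 and 0.96), and for Krt18 Tmem245, Cebpzos and St14 (r of 0.99 each). For Krt7 they were Ly6f, Josd2 and Plb1 (r of 0.98 to 0.99), for Krt19 Septin4, Nxf7 and Gabbr1 (r of 0.99 each), and for Krt28 Uncx, Borcs6 and Lbx2 (r of 0.97 to 0.99). All these correlations are over group means that share the same embryos.

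The other 43 keratin genes on the array were mostly flat, with maternal exceptions. Lists are read through the main probe set of each gene, the one with the largest SD, which favours calls over the background of all probe sets. Between clones and IVF embryos 1 of 43 differed at the 8-cell stage, Krt78, which was higher in clones by 0.29 ± 0.06 (adjusted p = 0.0357). At that stage 13 of 43 had an unadjusted p under 0.05 and 8.01% of all probe sets passed, and without 8-cell clone 4 the Krt78 call was lost (0.30, adjusted p = 0.0621). In comparison, 0 of 43 differed at the other 5 stages in limma's test, with 0 to 2 of 43 under an unadjusted p of 0.05. The clone step to the 2-cell stage minus the IVF step was 0.28 for Krt80 (adjusted p = 0.00115) and -0.44 for Krt75 (adjusted p = 0.0466), where 8.54% of all probe sets passed. Without 1-cell clones 4 and 5 Krt80 kept its call (0.28, adjusted p = 0.00281) and Krt75 lost it (-0.42, adjusted p = 0.0786). From the oocyte to the IVF 1-cell stage 4 of 43 rose and 3 fell, where 24% of all probe sets changed, with a median of -0.02 as for all probe sets. Krt10, a keratin of the upper epidermis, stood at -0.45 in IVF 1-cell embryos against 4.72 in oocytes (adjusted p = 3.65e-06). Krt12, known from the cornea, stood at 8.91 in IVF 1-cell embryos against 7.77 in oocytes (adjusted p = 1.98e-05).

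Krt12 was then lost in both kinds of embryo. The step to the 2-cell stage was -4.00 ± 0.26 in clones (adjusted p = 8.45e-13) and -4.65 ± 0.15 in IVF embryos (adjusted p = 2.65e-12). The step to the 4-cell stage was -4.23 ± 0.26 in clones (adjusted p = 2.19e-12) and -4.17 ± 0.15 in IVF embryos (adjusted p = 3.68e-10). Krt84, a hair keratin, also fell then, by a log2 difference of -2.97 ± 0.49 in clones (adjusted p = 4.16e-05) and -3.73 ± 0.21 in IVF embryos (adjusted p = 4.03e-08). Krt73, a type II keratin of the inner root sheath, had a step to the 2-cell stage of -3.14 ± 0.25 in clones (adjusted p = 5.85e-11) and -2.74 ± 0.35 in IVF embryos (adjusted p = 1.55e-05). In all, 8 of 43 fell in clones and 4 of 43 in IVF embryos at that step, and none rose, where 29.6% and 25.6% of all probe sets changed. Without 1-cell clones 4 and 5, 7 of 43 fell in clones, and the steps of Krt12 and Krt73 were -3.47 and -2.60 (adjusted p = 1.61e-12 and 2.01e-11).

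At the step to the blastocyst Krt10 came back as the 1 riser of 43 in each kind of embryo, by 2.41 ± 0.37 in clones (adjusted p = 2.48e-05) and by 2.47 ± 0.56 in IVF embryos (adjusted p = 0.00545). There, 19 of 43 fell in clones and 11 of 43 in IVF embryos, where 38.4% and 29.9% of all probe sets changed. The lowest differences of the list were -0.65 in clones and -0.49 in IVF embryos. The medians over all its genes were -0.08 and -0.05, which is where all probe sets lay too. No gene of the list changed in IVF embryos or in clones at the steps to the 8-cell stage and the morula. In limma's test 2 to 8 of 43 had an unadjusted p under 0.05 there, and 1 of 43 fell in clones at the step to the morula without 8-cell clone 4.

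Desmosomal proteins and plakins anchor keratin filaments at cell contacts. Of their 17 measured genes, 7 rose and 0 fell in clones at the step to the morula, where 14.2% of all probe sets changed, with a median of 0.49 against -0.03 for all probe sets. In IVF embryos 4 rose and 0 fell there, where 11.4% of all changed, with a median of 0.68 against 0.00. The desmosomal cadherin Dsg2 rose by 5.34 ± 0.57 in clones (adjusted p = 3.71e-07) and by 6.52 ± 0.23 in IVF embryos (adjusted p = 9.92e-11). Desmoplakin, Dsp, which binds keratin filaments, rose by 4.15 ± 0.54 in clones (adjusted p = 5.67e-06) and by 3.39 ± 0.99 in IVF embryos (adjusted p = 0.0372). Without 8-cell clone 4 the clone steps were 5.86 for Dsg2 and 4.21 for Dsp (adjusted p = 4.21e-08 and 1.83e-05), and 7 of 17 rose.

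Between morula and blastocyst 5 of 17 rose and 2 fell in clones, and 3 rose and 2 fell in IVF embryos, where 38.4% and 29.9% of all probe sets changed. The cadherin Dsc2 rose there by 7.25 ± 0.46 in clones (adjusted p = 3.93e-12) and by 5.29 ± 0.88 in IVF embryos (adjusted p = 0.000597). At the step to the 8-cell stage 3 of 17 rose in clones, Perp, Plec and Dsp, by 3.75 ± 0.68, 2.38 ± 0.47 and 2.52 ± 0.54 (adjusted p = 0.00126, 0.00295 and 0.00542), where 3.87% of all probe sets changed. Leaving out 8-cell clone 4 gave steps of 3.16, 2.12 and 2.47 (adjusted p = 0.00406, 0.0108 and 0.0131). In IVF embryos 0 of 17 passed there in limma's test (1.12% of all probe sets), with 2 of 17 under an unadjusted p of 0.05.

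In blastocysts 2 of the 17 genes differed between clones and IVF embryos, where 3.36% of all probe sets did. Dsp averaged 8.07 in clones and 7.51 in IVF embryos, a difference of 0.56 ± 0.10 (adjusted p = 0.0364). Dst, a plakin that links intermediate filaments to hemidesmosomes, averaged 1.69 in clones and -0.30 in IVF embryos, a difference of 1.99 ± 0.37 (adjusted p = 0.0423). At the 8-cell stage Dst was lower in clones, at -3.59 against -0.02 in IVF embryos (adjusted p = 0.0281), and its step to the morula was larger in clones by 3.99 ± 0.87 (adjusted p = 0.00467). These differences were -3.74 and 4.15 without 8-cell clone 4 (adjusted p = 0.0438 and 0.00381). No other gene of the list passed when clones and IVF embryos were compared at the 6 stages or in their steps. Without 1-cell clones 4 and 5, 1 of 17 was higher in clones at the 1-cell stage (3.21% of all probe sets passed). For 1 of 17 the clone step to the 2-cell stage then lay below the IVF step (9.16% of all).

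Of 15 trophectoderm regulators, 11 rose and 1 fell at the step to the blastocyst in clones, with a median of 2.24 against -0.08 for all probe sets. In IVF embryos 9 rose and 0 fell, with a median of 2.39 against -0.05. At this step 38.4% of all probe sets changed in clones and 29.9% in IVF embryos. Tfap2a, an AP-2 factor, rose by 8.09 ± 0.28 in clones (adjusted p = 1.49e-17) and by 8.19 ± 0.60 in IVF embryos (adjusted p = 1.75e-07). Cdx2, the factor that specifies trophectoderm, rose earlier, at the step to the morula, by 6.47 ± 0.32 in clones (adjusted p = 2.23e-13) and by 4.83 ± 0.88 in IVF embryos (adjusted p = 0.00168). The clone step of Cdx2 was 6.46 without 8-cell clone 4 (adjusted p = 2.74e-12).

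At the 8-cell stage the mean of the 6 trophectoderm markers without keratins lay between -0.42 and -0.02 in clones and between 0.85 and 2.03 in IVF embryos, without overlap, whereas Krt8 and Krt18 overlapped. Hand1, 1 of the 6, averaged 0.23 in clones and 5.16 in IVF embryos at this stage (adjusted p = 0.00572). Of the 15 regulators, Hand1 was lower and Yap1 higher in 8-cell clones, by 0.92 ± 0.19 (adjusted p = 0.0412), Yap1 was higher in cloned blastocysts by 0.73 ± 0.11 (adjusted p = 0.0229), and Id2 was lower in 1-cell clones by a log2 difference of -4.22 ± 0.63 (adjusted p = 0.0201). Without 8-cell clone 4 Hand1 kept its call (-4.89, adjusted p = 0.0169) and Yap1 lost it (0.98, adjusted p = 0.0581), and without 1-cell clones 4 and 5 Id2 lost it (-4.33, adjusted p = 0.0558). In limma's test 0 of the 15 passed in morulae or at the 2-cell and 4-cell stages, with 1, 3 and 4 under an unadjusted p of 0.05. Differences between steps, clone minus IVF, passed for Id2, Tfap2c and Klf5 at the step to the 2-cell stage (6.05, -3.03 and -1.96, adjusted p = 0.000481, 0.00732 and 0.00783). At the step to the 8-cell stage Hand1 passed (-2.60, adjusted p = 0.0169), and at the step to the morula Hand1, Gata3 and Wwtr1 (4.94, 2.48 and 2.44, adjusted p = 3.46e-07, 0.0059 and 0.0107). Of all probe sets 8.54%, 0.759% and 3.55% passed there. Each kept its call without 1-cell clones 4 and 5 or without 8-cell clone 4.

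Of 15 genes for other intermediate filaments, 1 differed between clones and IVF embryos, the lens filament gene Bfsp1 at the 1-cell stage, at 4.13 in clones against 6.15 in IVF embryos (adjusted p = 0.0451). Without 1-cell clones 4 and 5 that call was lost (-1.78, adjusted p = 0.15). The clone step to the 2-cell stage minus the IVF step was 3.88 for Bfsp1 and -0.98 for Gfap (adjusted p = 6.13e-05 and 0.000741), where 8.54% of all probe sets passed. Without 1-cell clones 4 and 5 these were 3.65 and -0.97 (adjusted p = 0.000371 and 0.00211). Vim, the mesenchymal vimentin gene, rose at the step to the blastocyst in clones by 3.21 ± 0.55 (adjusted p = 9.56e-05), and that step was larger in clones than in IVF embryos by 3.76 ± 0.86 (adjusted p = 0.0126). The nuclear lamin gene Lmna rose at that step by 3.03 ± 0.67 in IVF embryos (adjusted p = 0.00465), and at the step to the morula by 2.29 ± 0.52 in clones (adjusted p = 0.00398), or 2.14 without 8-cell clone 4 (adjusted p = 0.0129). Of 11 measured genes for keratin binding and assembly, 0 differed between clones and IVF embryos at any stage in limma's test, with 0 to 4 under an unadjusted p of 0.05. Without 1-cell clones 4 and 5, 1 of 11 was lower in clones at the 1-cell stage.

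From the 2-cell to the 4-cell stage 5 of these 11 rose and 3 fell in clones (25.9% of all probe sets changed) and 6 rose and 1 fell in IVF embryos (17.4% of all). Sfn, the epithelial 14-3-3 protein, rose there by 4.81 ± 0.35 in IVF embryos (adjusted p = 3.38e-07). At the step to the 2-cell stage 2 rose and 5 fell in each kind, where 29.6% of all probe sets changed in clones and 25.6% in IVF embryos. Ywhaz, another 14-3-3 protein, fell there, with log2 differences of -4.70 ± 0.32 in clones (adjusted p = 4.15e-12) and -4.56 ± 0.30 in IVF embryos (adjusted p = 1.05e-08). Without 1-cell clones 4 and 5 the clone step was -4.50 (adjusted p = 4.81e-10). Between morula and blastocyst 1 of 11 rose in each kind (38.4% of all probe sets changed in clones and 29.9% in IVF embryos), Akap9, a scaffold protein of the centrosome, by 3.62 ± 0.55 in clones (adjusted p = 1.96e-05) and by 3.20 ± 0.78 in IVF embryos (adjusted p = 0.00799).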

How the data were processed

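The deposited log2 values of 51 expression arrays, each of 1 oocyte or embryo, were used. Per the submitters' processing notes the authors made them with RMA, and per the labels' protocols the RNA went through 2 rounds of amplification. The deposited values are centred for each probe set: 94.3% of probe sets have exactly 1 array at 0. They therefore hold no absolute level, detection call or saturation limit. Their largest range over arrays, 13.8, exceeds the 11.1 that natural logs of a scanner's full range allow.

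Groups came from the sample labels. Linear models and moderated tests were run with limma 3.58.1 in R 4.3.3 on the 45037 probe sets left without the 64 manufacturer controls, with Benjamini-Hochberg adjustment and a threshold of 0.05. Clones and IVF embryos were compared in 1 fit per stage (8 arrays), neighbouring stages within the 21 arrays of oocytes and IVF embryos and within the 30 clone arrays, and differences between steps in a fit of all 51. The procedure was tested on simulated data. Correlations within groups used 100000 permutations with scipy 1.17.1 and numpy 2.4.6. Gene symbols came from the platform annotation, with 34945 probe sets of 1 symbol and 932 of several, which were not named.

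The members and lists were chosen with earlier results of these data known. All Krt28 differences that use the 2-cell stage are given without a test, since the gene was chosen on them. All probe sets of the members were reported, and up to 4 genes of each list with the smallest adjusted p per comparison could be named, through the probe set with the largest SD. Same-numbered clones and IVF embryos did not deviate together (r between -0.18 and 0.09 over all probe sets), so the numbers do not pair them. Alternatives were array centring, quantile normalization, a filter on SD, a covariate for hybridisation controls, robust variances, a replicate block, 1 fit of all arrays, and embryos left out. The fits without 1-cell clones 4 and 5 and without morula clone 5 were chosen after seeing the data.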

Additional observations from a re-analysis of the deposited data

Results flagged for a closer look

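Among the 42 groups of 5 clones (7 probe sets at 6 stages), 6 held an embryo far from the other 4 by Dixon's criterion, where chance gives about 5% of groups. For Krt8 these were the highest 2-cell clone, replicate 4 at -1.16, and, on 1423691_x_at, the highest 4-cell clone, replicate 3 at 1.19. For Krt7 they were the highest cloned morula, replicate 5 at 0.0548, and the lowest cloned blastocyst, replicate 2 at 0.27. For Krt19 they were the lowest 2-cell clone, replicate 3 at -0.0406, and the highest 4-cell clone, replicate 5 at 0.0466. The Krt19 values and the Krt7 morula lie next to the baseline. The 2-cell clone of replicate 4 is the embryo whose removal brought the Krt8 difference at that stage past the threshold.

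The step from the 1-cell to the 2-cell stage differed between clones and IVF embryos for Krt8, by -5.10 on 1420647_a_at, -4.16 on 1423691_x_at and -4.82 on 1435989_x_at. The step from the 8-cell stage to the morula differed for Krt28 by 3.74, where the 8-cell clones averaged 0.41 and the 8-cell IVF embryos 4.10.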

How the results depend on the processing

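No called difference of a single gene changed direction under any alternative. Some that were not called did. The Krt8 clone step to the morula minus the IVF step was -0.72, and 0.03 without 8-cell clone 4. Of 21 called differences of single genes, 7 kept their call in every alternative run: the Krt8 steps of IVF embryos to the 2-cell stage, the 4-cell stage and the morula, the Krt28 step of IVF embryos to the morula and its difference from the clone step, and the Krt18 and Krt7 steps of clones to the blastocyst. All 7 come from fits that share 1 estimate of the spread over stages, in the alternatives too. The other 14 lost it in at least 1 alternative, and 229 of 283 recomputed calls were kept.

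Clones and IVF embryos differed in 3 comparisons of members, in 0 with the hybridisation controls as a covariate and in 1 to 3 with 1 replicate left out. The steps of clones gave 6 calls, 3 with that covariate and 3 to 7 with 1 replicate left out. The differences between steps gave 2 calls, and 1 with quantile normalization, with that covariate or without 1-cell clones 4 and 5, and 1 to 3 with 1 replicate left out. The steps of IVF embryos gave 10 calls, 7 to 10 with 1 replicate left out. With the replicate number as a block the counts were 0, 6, 2 and 10, though the numbers do not pair these embryos. The cause was not tested.

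Over all probe sets, calls between clones and IVF embryos numbered 8033, 1393 with the covariate, 10 with the replicate block, 4351 with 1 probe set per gene, 21219 in 1 fit of all arrays and 3149 to 7318 with 1 replicate left out. IVF steps gave 49301, 20545 with the covariate, 24042 with 1 probe set per gene and 29770 to 32223 with 1 replicate left out. Clone steps gave 50438, 23569 with 1 probe set per gene, and differences between steps 7297 and 4082. The number of arrays limits the precision. Centred values hide how far a signal stands above background.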
